A study of Mus musculus with 2 samples.

Results

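The genes described here are the nuclear factors that carry the cyclic AMP signal to chromatin in the adrenal gland: the CREB family (Creb1, Crem and Atf1), the CREB-regulated coactivators (Crtc1, Crtc2 and Crtc3), the salt-inducible kinase Sik1, and the NR4A orphan nuclear receptors (Nr4a1, Nr4a2 and Nr4a3). They were taken by symbol, and all 10 were found among the 55536 annotated genes. Total RNA was sequenced from adrenal glands of male B6CASTF1/J mice aged 25 days, a first-generation cross between a laboratory strain and a wild-derived strain, with no treatment named. The single group had 2 libraries, for which 300 ng of RNA was depleted of ribosomal RNA and ERCC spike-in transcripts were added, so the data hold levels in 1 condition and the spread between libraries. The biosample labels give animal 3 for replicate 1 and animal 4 for replicate 2, but the library labels give animal 3 for both and the donor label is shared. The p-values below therefore measure no more than how far 2 libraries differ, for which a technical source and an animal cannot be told apart.

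In the adrenal cortex, adrenocorticotropic hormone acts through its receptor to raise cyclic AMP and activate protein kinase A. The kinase phosphorylates the kinase-inducible domain (KID) of CREB-family proteins, which bind cyclic AMP response elements through a basic leucine zipper (bZIP) and then recruit the acetyltransferases CBP and p300. It also holds the salt-inducible kinases in check, so that the CRTC coactivators lose their phosphates, enter the nucleus and join CREB. Sik1, the Nr4a genes and the short Crem product ICER are themselves induced by this pathway, and ICER, which has the bZIP but no KID, is a repressor. NR4A receptors bind DNA without a known hormone and are known to act on steroidogenic genes.

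Both libraries carried the labelled tissue, and they also stood apart from each other. TPM is a level scaled to transcript length and to a fixed total per library. The 6 adrenal cortex markers summed to 10350 TPM in replicate 1 and 5813 in replicate 2, and the 6 chromaffin cell markers to 1602 and 1088. The 6 liver markers summed to 25.7 TPM in replicate 1 and 19410 in replicate 2, with Alb, which encodes albumin, at 16.31 and 11948.85. The 6 skeletal muscle markers summed to 1196 and 1.81 TPM, and Acta1, which encodes muscle actin, was at 425.63 and 0.07. Adipocyte markers summed to 2152 and 1523 TPM, endothelial markers to 204.0 and 165.0, macrophage markers to 85.38 and 86.48 and lymphocyte markers to 0.46 and 0.75. All 6 liver markers were higher in replicate 2, and all 6 markers of cortex, of chromaffin cells and of muscle were lower. The libraries held 35283840.68 and 35156690.03 expected counts. What part these other tissues had in the values below was not tested, and in whole-gland RNA fewer cells of a type and less RNA per cell cannot be told apart.

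All 10 genes reached 1 TPM in each library. Crem stood at the top of the order in the mean TPM of either quantification, and Sik1 and Nr4a2 at its foot. The top place of Crem rests on the length correction, since Creb1 had more counts in both libraries (1773 and 1350 against 1684 and 660). In replicates 1 and 2 the effective length used for TPM was 827.82 and 886.12 for Crem, and 3306.7 and 3255.68 for Creb1. By mean TPM the order was Crem, Nr4a1, Atf1, Crtc2, Creb1, Crtc3, Nr4a3, Crtc1, Sik1 and Nr4a2. The ranges of neighbours over the 2 libraries overlapped except between Crtc2 and Creb1, Creb1 and Crtc3, Crtc1 and Sik1, and Sik1 and Nr4a2. Crem at 40.75 ± 26.6 TPM (SD, n = 2) exceeded the mean of 87.8% of the 11914 nuclear protein-coding genes detected at 1 TPM or more in both libraries. Nr4a2 at 1.72 ± 0.226 TPM (SD, n = 2) exceeded 5.2% of them. Nr4a1 was rank 5 of the genes in replicate 1 and rank 1 in replicate 2. In a second quantification of the same libraries, Atf1 moved to rank 2, Nr4a1 to rank 3, Crtc3 to rank 5 and Creb1 to rank 6, while Crem, Crtc2, Nr4a3, Crtc1, Sik1 and Nr4a2 held their places.

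**Figure D1:**
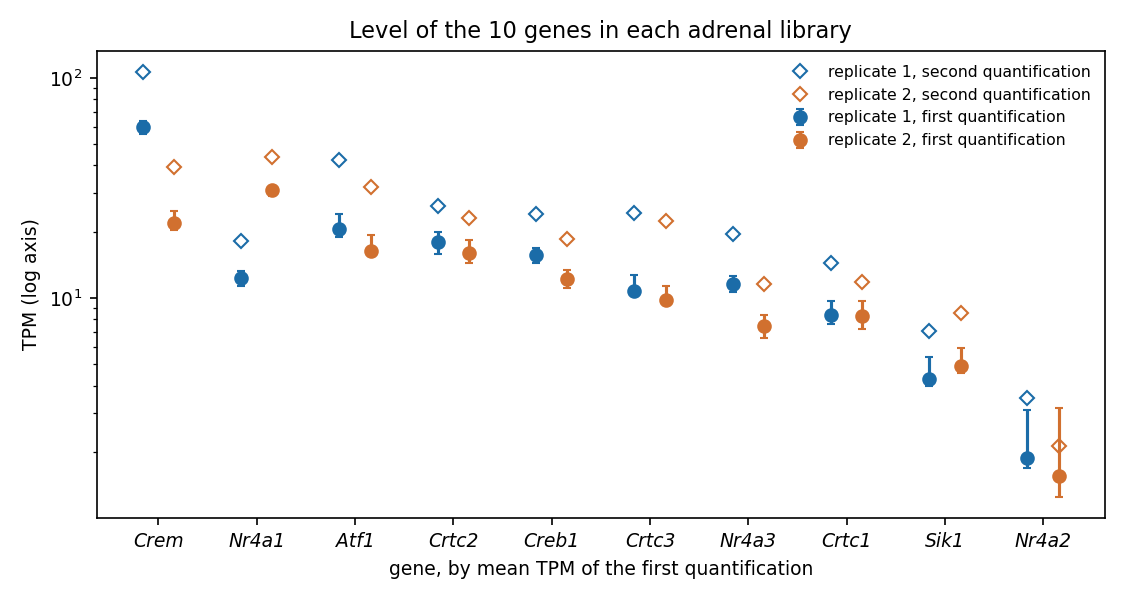
TPM of the 10 genes (log axis) in replicate 1 (blue) and replicate 2 (orange), as filled circles with the deposited credibility interval for the first quantification and as open diamonds for the second. Crem lies at 59.55 and 21.96 TPM and Nr4a1 at 12.32 and 30.84, so these genes trade places between the libraries, while Crtc1 lies at 8.4 and 8.3.

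Between the libraries, 5 of the 10 genes differed beyond counting error, against 39.1% of the 19801 genes tested. Nr4a1 and Sik1 were higher in replicate 2, where 20.7% of tested genes were called higher, and Crem, Nr4a3 and Creb1 were lower, where 18.4% were called lower. Crem and Nr4a1 were the 2 that also differed at least 2-fold, against 10.9% of tested genes. Over only 10 genes these counts are close to the background shares, so they are no result about the genes as a set. Calls are from a two-sided exact binomial test on counts scaled by TMM, with Benjamini-Hochberg adjustment over all tested genes at 0.05. The test has 1 library on each side and covers counting error only. Over genes that averaged 1 TPM or more, the median log2 ratio of replicate 2 over replicate 1 was -0.02 with TMM scaling, -0.25 under total counts and -0.37 under spike-in totals, so the other scalings shift every ratio downward.

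**Figure D2:**
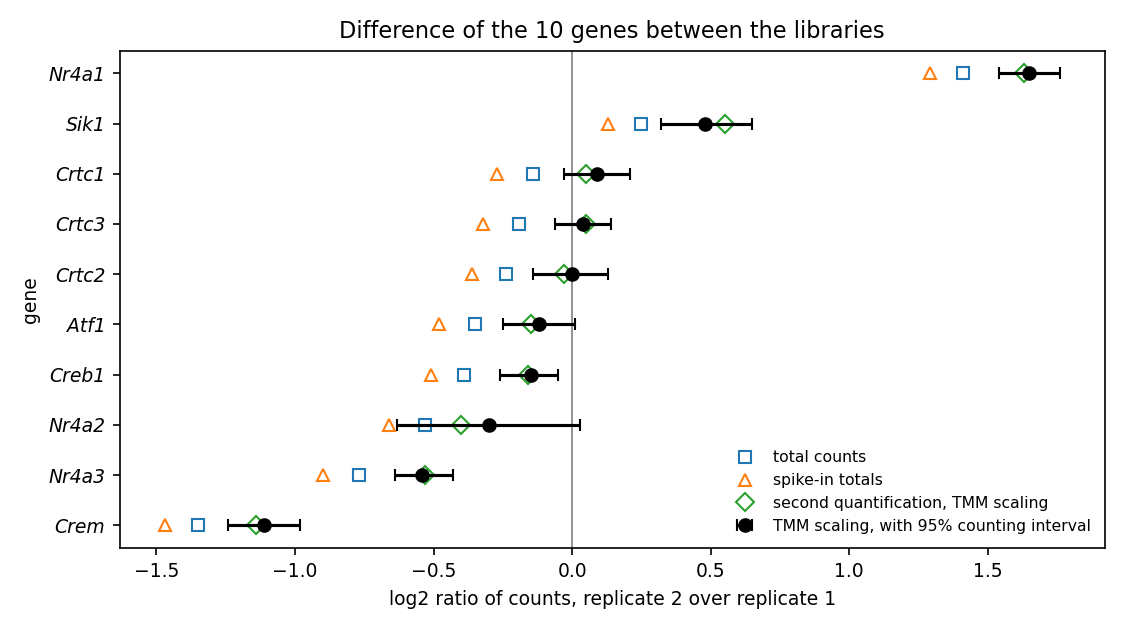
log2 ratio of counts, replicate 2 over replicate 1, for the 10 genes, with TMM scaling (black, with the 95% exact counting interval), total counts (squares), spike-in totals (triangles) and the second quantification (diamonds). Nr4a1 at 1.65 and Crem at -1.11 lie farthest from 0 on either side under each of these settings, and Crtc1 and Crtc3 change side under total counts and spike-in totals.

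Creb1 (chr1:64532645-64604548, plus strand, mm10) encodes CREB itself, the activator that protein kinase A switches on. Its level was 15.7 TPM in replicate 1 (1773 counts) and 12.22 TPM in replicate 2 (1350 counts). The first library was the higher. The log2 ratio of counts was -0.15 (95% interval -0.26 to -0.05; adjusted p = 0.0096, exact binomial test), a small difference that passed in every setting tried for it except the rule that asks for a 2-fold change. Atf1 (chr15:100227819-100261244, plus strand), a close relative of CREB and its dimer partner, was at 20.6 and 16.43 TPM (1096 and 854 counts). Its log2 ratio of -0.12 (-0.25 to 0.01) did not pass (adjusted p = 0.15, exact binomial test). The TPM ratio of Creb1 to Atf1 was 0.762 in replicate 1 and 0.744 in replicate 2, so this balance hardly moved, and the log2 difference of their count ratios was -0.03 (-0.20 to 0.13).

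In both Creb1 and Atf1 the largest class of transcripts by TPM held both motifs searched for, and the rest of each domain was not checked. Those whose annotated coding sequence holds both the phosphorylated site of the KID and the basic region of the bZIP took 78.3% of Creb1 TPM in replicate 1 and 69.8% in replicate 2, and 83.3% and 77.1% in the second quantification. For Atf1 the shares were 57.1% and 53.1%, and 45.7% and 46.1% in the second. Both genes have 0 annotated transcripts that encode the basic region without the KID site. The coding bases around the phosphorylated serine, read from GENCODE M21 transcripts, show the site that the short Crem products lack. It lies at codon 133 of 341 in Creb1-209 and codon 63 of 269 in Atf1-201. Each stretch of 51 coding bases spans 2 exons, at chr1:64566283-64570149 for Creb1 and chr15:100245311-100252084 for Atf1, both on the plus strand of mm10. The capitals mark the codons for arginine, arginine, proline, serine and tyrosine, and 35 of the 51 bases are the same in both genes.
Creb1: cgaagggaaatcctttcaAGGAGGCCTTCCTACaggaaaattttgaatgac
Atf1: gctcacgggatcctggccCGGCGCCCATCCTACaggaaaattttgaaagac

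Among the CREB-family genes, Crem varied most. Crem (chr18:3266048-3337748, minus strand) encodes activators and repressors from several promoters. It was at 59.55 TPM in replicate 1 (1684 counts) and 21.96 TPM in replicate 2 (660 counts). The first library was thus the higher by 2.16-fold in TMM-scaled counts, and the log2 ratio was -1.11 (-1.24 to -0.98; adjusted p = 7.4e-68, exact binomial test). It stayed between -1.11 and -1.47 under the other scalings and in the second quantification. Crem made up 62.1% of the summed TPM of Creb1, Crem and Atf1 in replicate 1 and 43.4% in replicate 2. Against Creb1 its TPM ratio was 3.79 and 1.80, and the log2 difference of count ratios was -0.96 (-1.12 to -0.79), a shift that no scaling of the libraries can alter. The TPM shares and ratios rest on the short effective length of Crem, while Creb1 had more counts in both libraries. An antisense gene, Gm6225, overlaps the 5′ end of Crem and had 97 and 82 counts, and whether the counting used strand is not given in the sources used here.

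By TPM, most Crem RNA measured in this gland was assigned to transcripts of the short, ICER type. The annotation holds 39 Crem transcripts, whose starts fall into 5 groups along the gene. The most 3′ group starts 55979 to 56670 bases after the first annotated start and holds 7 coding transcripts of 436 to 1015 nucleotides. These 7 are also exactly the Crem transcripts that encode the basic region and lack the KID site. The group took 86.3% of Crem TPM in replicate 1 and 80.3% in replicate 2 (83.3% ± 4.24, SD, n = 2), or 51.38 and 17.62 TPM. By counts, which do not correct for their short length, it took 66.4% and 62.8%. In the second quantification it took 64.4% and 62.6% of TPM, with 68.5 and 24.74 TPM. By counts the second gave 49.8% and 41.5%. The TPM share was thus the larger part in each library and each quantification, and its size depended on the quantification more than on the library.

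Forms of Crem with the KID were scarcer by TPM. They are not all long, with annotated lengths of 654 to 2931 nucleotides. The 23 transcripts that encode both the KID site and the basic region held 9.49% and 12.1% of Crem TPM in the first quantification and 34.5% and 35.6% in the second. By counts they held 27.0% and 30.1% in the first and 48.7% and 55.6% in the second. The short group held 49.8% and 41.5% of counts in the second. By counts of the second the 2 classes were thus nearly level in replicate 1, and the forms with both were the larger in replicate 2. In absolute level these transcripts were at 5.65 and 2.65 TPM in the first and 36.68 and 14.06 TPM in the second. The TPM scales of the quantifications differ, since the second gave Crem as a whole 1.79 and 1.8 times the TPM of the first. In the second, 15.99 of the 36.68 TPM in replicate 1 lay on Crem-212 (764 nucleotides) and 8.596 on Crem-231 (654 nucleotides), which are as short as the ICER-type transcripts. The short group was 2.92-fold higher in replicate 1 than in replicate 2 by TPM, and the forms with both were 2.13-fold higher. In the second quantification these values were 2.77-fold and 2.61-fold, so the short group and the forms with both were lower in replicate 2. The 2 transcripts with the KID site and no basic region went the other way, at 0.33 and 0.58 TPM in the first quantification. The split among single transcripts is an estimate from shared reads and was not stable. Crem-233, a form with both, was at 2.1 TPM in replicate 1 and listed at 0 in replicate 2 in the first quantification. Among the short transcripts the split varied as well. Crem-235 held 24.72% and 29.17% of Crem TPM, Crem-229 held 20.0% and 14.54%, and Crem-224 held 15.73% in replicate 1 and was listed at 0 in replicate 2. The second quantification listed Crem-224 at 0 in both libraries.

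**Figure D3:**
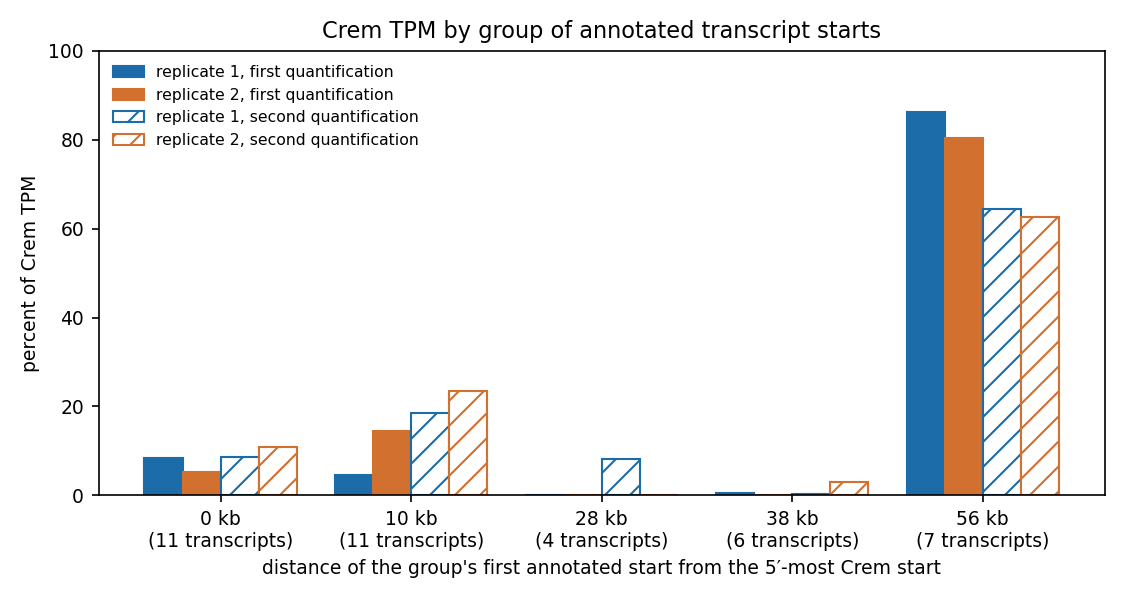
Percent of Crem TPM on each of 5 groups of annotated transcript starts, by distance from the first start, in both libraries (blue, replicate 1; orange, replicate 2) and both quantifications (filled, first; hatched, second). The bars of the group at 56 kb, the 7 short transcripts with the bZIP and without the KID, stand at 86.3% and 80.3% in the first quantification and 64.4% and 62.6% in the second.

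With TMM scaling the CRTC coactivators had the smallest ratios of the 10 genes, which was not so with spike-in totals. Crtc2 (chr3:90254163-90264125, plus strand), the coactivator best known from hormonal control of glucose production, was at 17.97 and 16.01 TPM (1044 and 882 counts), with a log2 ratio of 0.00 (-0.14 to 0.13; adjusted p = 1, exact binomial test). Crtc3 (chr7:80586627-80688877, minus strand) was at 10.72 and 9.76 TPM (1757 and 1532 counts), with a log2 ratio of 0.04 (-0.06 to 0.14; adjusted p = 0.6, exact binomial test). Crtc1 (chr8:70382355-70439579, minus strand), the form best known from neurons, was at 8.4 and 8.3 TPM (1228 and 1108 counts), with a log2 ratio of 0.09 (-0.03 to 0.21; adjusted p = 0.26, exact binomial test). None of the 3 passed with TMM scaling. Their intervals reached at most 0.21 from 0 on the log2 scale, but they cover counting error under this scaling only. Scaled by total counts or by spike-in totals, all 3 were called lower in replicate 2. Crtc2 made up 48.4% and 47.0% of their summed TPM, Crtc3 28.9% and 28.6%, and Crtc1 22.6% and 24.4%. In the second quantification Crtc2 and Crtc3 were nearly level, with a TPM ratio of 1.07 and 1.03 in place of 1.68 and 1.64. Crtc3 overlaps the small genes Gm15880, which had 1 and 0 counts, and Gm44931, which had 7 and 15.

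By TPM, a large part of the CRTC signal lay on transcripts annotated as retaining an intron, which are not annotated as coding. For Crtc2 these 5 transcripts held 49.1% and 49.6% of TPM, and the 1 coding transcript held 23.5% and 28.2%. Another 23.6% and 22.2% lay on 1 processed transcript without a coding sequence, which held 0.000588% and 5.38% in the second quantification. The second quantification gave the coding transcript 50.6% and 48.4% and the retained-intron forms 38.8% and 42.2%. Crtc1 had 41.3% and 33.4% on retained-intron transcripts, and 47.7% and 41.9% in the second. Crtc3 had 10.4% and 15.5%, which became 21.3% and 37.4% in the second, where its coding transcript held 62.0% and 56.9% in place of 89.6% and 84.5%. For comparison, the share was 14.0% and 13.2% for Creb1 and 5.76% and 0.811% for Nr4a1. The gene-level TPM of the 3 genes is thus not a level of coding RNA alone, and by how much it differs depends on the quantification. By counts of the first quantification, which do not correct for length, the coding transcript held a larger share than by TPM. In replicate 1 it held 941.75 of 1228 counts for Crtc1, 381.89 of 1044 for Crtc2 and 1645.17 of 1757 for Crtc3.

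Sik1 (chr17:31844250-31855804, minus strand), the cyclic AMP-induced kinase that phosphorylates the CRTC proteins, was low. It was at 4.28 TPM in replicate 1 (591 counts) and 4.91 TPM in replicate 2 (701 counts), above the mean of 24.2% of detected genes. The second library was the higher, with a log2 ratio of 0.48 (0.32 to 0.65; adjusted p = 1.2e-08, exact binomial test). With spike-in totals the ratio was 0.13 and did not pass (adjusted p = 0.17, exact binomial test). Against Crtc2 its TPM ratio was 0.238 and 0.307, and the log2 difference of count ratios was 0.49 (0.29 to 0.69). Its relative Sik2, on the list of CRTC kinases, was at 39.56 and 33.47 TPM and so exceeded Sik1 in both libraries.

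The NR4A genes moved in opposite directions between the libraries. Nr4a1 (chr15:101254269-101274795, plus strand), also called Nur77 and rapidly induced by adrenocorticotropic hormone, was at 12.32 TPM in replicate 1 (920 counts) and 30.84 TPM in replicate 2 (2439 counts). The second library was 3.13-fold higher in TMM-scaled counts, with a log2 ratio of 1.65 (1.54 to 1.76; adjusted p = 9e-215, exact binomial test), and the ratio was 1.41 under total counts and 1.29 under spike-in totals. Nr4a3 (chr4:48045153-48086447, plus strand), also called NOR1, was at 11.57 TPM (1938 counts) and 7.43 TPM (1132 counts). Here the first library was the higher, with a log2 ratio of -0.54 (-0.64 to -0.43; adjusted p = 7.6e-23, exact binomial test). Nr4a2 (chr2:57106830-57124003, minus strand), also called NURR1, was at 1.88 and 1.56 TPM on 190 and 131 counts, and its log2 ratio of -0.30 (-0.63 to 0.03) did not pass (adjusted p = 0.16, exact binomial test).

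The make-up of the NR4A family therefore differed between the libraries. Nr4a1 and Nr4a3 were nearly level in replicate 1, at 47.8% and 44.9% of the summed NR4A TPM. In replicate 2 they stood at 77.4% and 18.7%. The TPM ratio of Nr4a1 to Nr4a3 was 1.06 and 4.15 in the first quantification and 0.929 and 3.78 in the second, and the log2 difference of count ratios was 2.18 (2.03 to 2.33). Nr4a3 and Nr4a2 kept a TPM ratio of 6.15 and 4.76, with a log2 difference of -0.24 (-0.58 to 0.10). Set against Crem, Nr4a1 went from a TPM ratio of 0.207 to 1.40, with a log2 difference of 2.76 (2.59 to 2.93), so these cyclic AMP-inducible genes did not move together. Nr4a1 was higher in the library with 19410 TPM of liver markers and lower cortex markers, and the part of these in the difference was not tested.

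The starts of the NR4A genes hold several copies of the core of the cyclic AMP response element. RefSeq (GRCm38.p6) promoter entries matched 7 of the 10 genes, and Crem, Crtc2 and Sik1 were not matched. In the 250 bases before the RefSeq start, the half-element TGACG, counted on both strands, was found 4 times each in Nr4a1, Nr4a2 and Nr4a3 and once in Atf1. Of all 32851 promoter entries, 17.8% hold at least 1 and 0.137% hold at least 4. These shares were not matched for base content, and G and C made up 74.4%, 80.0% and 63.6% of the Nr4a1, Nr4a2 and Nr4a3 windows. The full element TGACGTCA, which contains the half-element on each strand, is in 1.55% of promoters, and the NR4A monomer element AAAGGTCA is in 1.34%. Neither was found in the windows of these 7 genes. The near ends of the half-elements lie 229, 209, 65 and 36 bases before the start in Nr4a1, 196, 140, 119 and 107 in Nr4a2, and 227, 209, 201 and 143 in Nr4a3. A match is a description of the letters and not a bound site. The windows are shown 5′ to 3′ on the gene's strand, with the half-element on either strand in capitals, to let the positions be seen. They are chr15:101266596-101266845 for Nr4a1 (in an intron of Nr4a1-202), chr2:57124004-57124253 for Nr4a2, and chr4:48045055-48045152 for Nr4a3, where the last 152 bases of the window, which are annotated as exon and hold 1 of the 4 half-elements, are left out.
Nr4a1: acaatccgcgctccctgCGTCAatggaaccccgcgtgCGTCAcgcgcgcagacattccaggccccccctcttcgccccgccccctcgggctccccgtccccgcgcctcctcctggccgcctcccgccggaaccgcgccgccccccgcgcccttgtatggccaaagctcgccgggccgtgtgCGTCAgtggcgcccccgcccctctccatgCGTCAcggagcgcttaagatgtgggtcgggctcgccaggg
Nr4a2: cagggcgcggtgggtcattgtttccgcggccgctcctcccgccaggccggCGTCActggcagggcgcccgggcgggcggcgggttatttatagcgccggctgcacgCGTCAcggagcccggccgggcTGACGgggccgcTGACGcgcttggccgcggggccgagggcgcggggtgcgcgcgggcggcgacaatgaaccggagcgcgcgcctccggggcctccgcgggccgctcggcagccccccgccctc
Nr4a3: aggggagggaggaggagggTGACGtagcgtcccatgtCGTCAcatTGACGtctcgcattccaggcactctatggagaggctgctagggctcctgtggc

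Which of these starts the RNA came from was only partly settled. For Nr4a3, transcripts that begin within 200 bases of the RefSeq start held 71.7% and 61.7% of TPM, and 75.9% and 72.5% in the second quantification. For Nr4a2 they held 76.5% and 34.6%, and 51.5% and 24.5% in the second. For Nr4a1 they held 89.3% and 96.7% in the first quantification but 2.6% and 1.05% in the second. The first gave 84.44% of Nr4a1 TPM in replicate 1 to Nr4a1-201, which starts there, and the second gave 16.5 of its 18.1 TPM to Nr4a1-202, which starts 12577 bases upstream. The gene-level ratio of Nr4a1 was 1.65 and 1.63 in the 2 quantifications, so the disagreement concerned the start and not the gene's level between the libraries.

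Other genes of the pathway were read from 8 lists. The counts that follow are to be read against the shares over all 19801 genes tested, 20.7% called higher and 18.4% called lower with TMM scaling. Under total counts these shares were 12.7% and 43.0%, and under spike-in totals 10.8% and 53.3%. The median log2 ratio over all genes tested was -0.01 with TMM scaling, -0.24 under total counts and -0.36 under spike-in totals.

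Of 21 cyclic AMP signalling genes tested, 3 were higher in replicate 2 and 13 lower, with a median log2 ratio of -0.32. The split was 2 and 16 under total counts, and 1 and 17 under spike-in totals. The lower ones included Gnas, the stimulatory G protein (994.55 and 679.06 TPM), Prkar2b and Prkar1a, regulatory subunits of protein kinase A (172.31 and 99.97, and 133.53 and 87.84 TPM), and Mrap, the accessory protein of the hormone receptor (165.09 and 78.56 TPM). Pkia, a protein kinase A inhibitor, had a log2 ratio of -1.23 at 4.67 and 1.7 TPM. The adrenal cortex marker sum was lower in the same library, and its part in these values was not tested.

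A list of 9 genes covered kinases and phosphatase subunits that act on CRTC proteins, and proteins upstream of those kinases. With TMM scaling 1 was higher and 5 were lower, with a median log2 ratio of -0.15. Under total counts 0 were higher and 7 lower, and under spike-in totals 0 and 9. Stk11, the kinase LKB1 that activates salt-inducible kinases, was the higher one (47.4 and 45.98 TPM, log2 ratio 0.16), but with spike-in totals it was called lower at -0.20. Cab39, its scaffold, was at 41.31 and 27.49 TPM, and Ppp3r1, the regulatory subunit of calcineurin, at 29.52 and 19.77, both lower. Of 8 coactivators, 2 were higher and 2 lower, near the shares over all genes, with a median of -0.01. Under total counts 0 were higher and 6 lower, and under spike-in totals 0 and 7. Crebbp, which encodes CBP, was at 19.37 and 15.23 TPM (log2 ratio -0.12, called lower), and Ep300 at 20.1 and 16.93 (log2 ratio 0.01, not called). Kat2b, an acetyltransferase, had a log2 ratio of 0.12 and Ncoa2, a nuclear receptor coactivator, 0.28, both called higher with TMM scaling. With spike-in totals Kat2b was called lower and Ncoa2 was at -0.08 and not called, so the higher calls depend on the scaling.

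Of 15 other factors that bind cyclic AMP response elements or resemble CREB, 5 were higher and 3 lower, with a median log2 ratio of -0.04. The balance turned to 3 higher and 9 lower under total counts, and 3 and 10 under spike-in totals. Atf5 had the highest mean, at 41.87 and 79.93 TPM (log2 ratio 1.16), followed by Atf4, the integrated stress response factor, at 52.92 and 35.76 (log2 ratio -0.34). Creb3 was at 36.69 and 31.16 TPM (log2 ratio -0.13), and Crebzf at 28.71 and 22.87 (log2 ratio -0.07, not called). Creb3l3, a membrane-bound factor known from liver and intestine, was at 0.33 and 41.02 TPM, on 13 and 2883 counts, and its log2 ratio was 8.03 (7.26 to 8.94). The liver marker Alb had a ratio of 9.74 in the same direction, and the part of liver RNA in the Creb3l3 and Atf5 values was not tested.

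**Figure D4:**
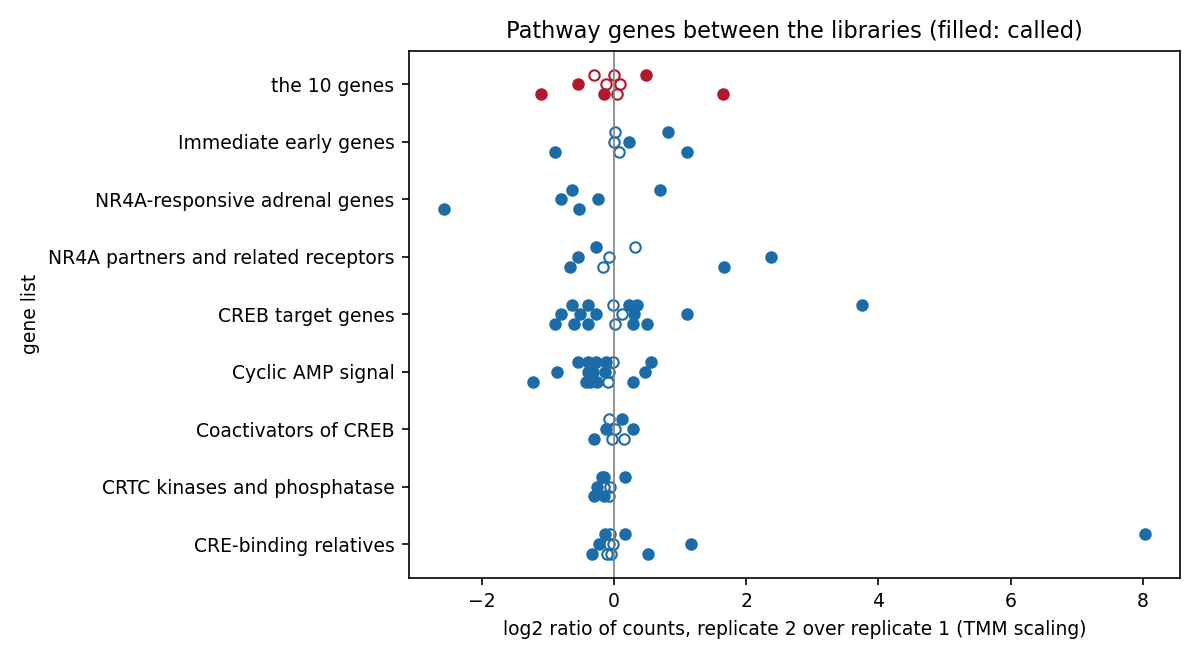
log2 ratio of counts, replicate 2 over replicate 1 (TMM scaling), for the genes of 8 pathway lists that averaged 1 TPM or more (blue) and for the 10 genes (red); filled points were called and open points were not, and a gene on 2 lists appears in both. Most cyclic AMP signal genes lie left of 0, and Creb3l3 at 8.03 and Inhba at 3.75 lie far to the right of the other points.

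Of 23 genes listed as CREB targets, 20 could be tested, and 7 were higher and 8 lower, with a median log2 ratio of 0.00. The split was 3 and 11 under total counts, and 2 and 13 under spike-in totals. Star, the cholesterol carrier that starts steroid synthesis, was at 3265.42 and 1839.96 TPM (log2 ratio -0.63), Chga, a granule protein of chromaffin cells, at 559.58 and 393.03 (log2 ratio -0.28), and Th, the first enzyme of catecholamine synthesis, at 186.16 and 121.3 (log2 ratio -0.39). Pck1, a gluconeogenic enzyme, was at 333.85 and 352.73 TPM and called higher (log2 ratio 0.29), but with spike-in totals it was called lower at -0.07. Egr1, a zinc finger immediate early factor, had a log2 ratio of 1.11 at 5.38 and 10.06 TPM, and Inhba, an inhibin and activin subunit, 3.75 at 0.42 and 3.15 TPM. The part of liver RNA in these 2 values was not tested. Calls thus went both ways in each scaling, in proportions set by the scaling.

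Of 11 immediate early genes, 3 were higher and 1 lower, with a median log2 ratio of 0.07. The balance turned to 2 higher and 5 lower under total counts, and 2 and 6 under spike-in totals. Jun at 49.01 and 41.9 TPM (log2 ratio 0.00) and Dusp1, a phosphatase, at 11.09 and 9.77 (log2 ratio 0.01) were not called. Ier2 was called higher at 7.43 and 11.23 TPM (log2 ratio 0.82), as was Junb with a log2 ratio of 0.23, which was 0.00 and not called with total counts. The 1 lower gene was Fos, named after its values were seen, at 1.57 and 0.72 TPM (log2 ratio -0.89; adjusted p = 0.006, exact binomial test), and it was called lower under total counts, spike-in totals and in the second quantification too. Egr1 and Ier2 thus lay in the direction of Nr4a1 and Fos in the opposite one, while Jun and Dusp1 lay near 0 with TMM scaling.

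Of 8 receptors that share DNA sites or dimers with NR4A proteins, or are related to them, 2 were higher, close to the share over all genes, and 3 lower, with a median log2 ratio of -0.13. Under total counts and under spike-in totals 2 were higher and 5 lower. Rxra, a retinoid X receptor that can pair with Nr4a1 and Nr4a2, was at 15.24 and 43.97 TPM (log2 ratio 1.66), and Nr5a2, known from liver and other tissues, at 1.43 and 7.43 (log2 ratio 2.38). The liver markers summed to 25.7 and 19410 TPM, and the part of liver RNA in the Rxra and Nr5a2 values was not tested. Nr5a1, the steroidogenic factor of the cortex, was at 129.35 and 68.93 TPM (log2 ratio -0.67), Nr2f2 at 40.34 and 29.04 (log2 ratio -0.27), and Rxrb at 22.46 and 19.52 (log2 ratio -0.08, not called). Of 6 genes listed as NR4A-responsive, 1 was higher and 5 lower, with a median of -0.58. The 6 adrenal cortex markers, which include Star and Hsd3b1 of this list, had a median of -0.63. The higher gene was Cyp17a1, named after its values were seen (log2 ratio 0.70). It was low, at 1.18 and 1.73 TPM on 69 and 95 counts, and was not called under total counts or spike-in totals. Besides Star, the lower ones included Hsd3b1 (3405.27 and 2014.65 TPM) and Cyp21a1 (1996.85 and 989.67 TPM), enzymes of steroid synthesis, and Akr1c18, a progesterone-degrading enzyme of the X-zone (526.6 and 75.43 TPM, log2 ratio -2.57). Nr4a1 itself was higher in the library in which these 5 were lower. The adrenal cortex marker sum was lower in that library too, and its part in these values was not tested.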

How the data were processed

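Total RNA libraries of 1 group (2 replicates) were analysed. Per the file headers, the authors deposited expected counts, TPM and the percent of gene TPM per transcript (first quantification), and estimated counts and TPM per transcript (second quantification, summed here per gene). Per the deposited text files both used mm10 and annotation M21. Names and versions of the aligner and quantifiers, and whether strand was used, were not given in the sources used here. Expected counts were rounded. Genes with at least 10 counts in total were tested by a two-sided exact binomial test on sizes scaled by TMM (edgeR 4.0.16, factors 1.08 and 0.923), with Benjamini-Hochberg adjustment, and 95% exact Clopper-Pearson intervals. Spike-ins held 0.839% and 0.915% of counts, and the other 26249 entries that name no gene held 8 and 6.73 counts. All stayed out of sizes and tests. Intervals cover counting error only. The deposited posterior SD of counts was 0 for 9 of the 10 genes and 0.79 and 0.85 for Atf1, so few reads were shared with other genes. Alternatives were RLE factors (DESeq2 1.42.0), total counts, spike-in totals, the second quantification, no count filter, a 2-fold rule and other TPM thresholds.

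The genes and lists were chosen with earlier results of these data known. The text names the 10 genes, the 4 most abundant genes of each list with any gene at least 2-fold different that averaged 1 TPM or more, and the 2 most abundant of each marker list (some are not named here). Gm6225, Gm15880 and Gm44931 are named for their overlap. Groups of Crem starts and the KID and bZIP classes were chosen after seeing the data. A class required the KID phosphorylation site or either form of the basic region. Each was accepted in any frame of the annotated coding sequence without a stop before its last codon. Starts less than 3000 bases apart formed 1 group.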

Additional observations from a re-analysis of the deposited data

How the results depend on the processing

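RLE factors and no count filter left 5 genes called. The count was 10 under total counts, 9 under spike-in totals and 2 with the 2-fold rule. Genes called higher in replicate 2 were 1 with spike-in totals, and genes called lower were 8 under total counts, 8 under spike-in totals and 5 in the second quantification, where Atf1 (-0.15) and Nr4a2 (-0.40) also passed. The log2 ratio turned negative for Crtc1 (-0.14 and -0.27) and Crtc3 (-0.19 and -0.32) under total counts and spike-in totals, which shift all ratios downward. Both scalings also called Atf1 (-0.35 and -0.48), Crtc2 (-0.24 and -0.36) and Nr4a2 (-0.53 and -0.66) lower, and spike-in totals lost Sik1 (0.13). Crem, Nr4a1, Nr4a3 and Creb1 kept direction and call under RLE, total counts, spike-in totals, the second quantification and no filter. List calls moved for the CREB relatives (13 with spike-in totals in place of 8), coactivators (7 in place of 4) and immediate early genes (7 under total counts and 8 under spike-in totals in place of 4). The Crem share on starts in the 3′ part of the gene was 65.2% in the second quantification in place of 83.6%, and that on transcripts with the bZIP and no KID 63.5% in place of 83.3%. The cause was not tested. Single libraries gave 80.3% to 86.9% and 80.3% to 86.3%. TPM levels also depend on the processing. Over detected nuclear protein-coding genes the median ratio of second to first TPM was 1.72 in replicate 1 and 1.66 in replicate 2. The mean TPM of Crem was 40.75 in the first quantification and 72.96 in the second. With TPM scaled over nuclear protein-coding genes alone it was 121.8.

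With 2 libraries and no second group, no spread between animals can be tested, and Nr4a2, on 190 and 131 counts, has the widest interval of the 10 genes. No paired analysis was possible because the series has 1 group.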
